A study of Mus musculus with 8 samples.

Results

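The D-type cyclins, their kinase partners CDK4 and CDK6, the inhibitors that hold these kinases back and the retinoblastoma protein were followed at the transcript level in 3 populations of mouse phagocytes. The set was named gene by gene: Ccnd1, Ccnd2 and Ccnd3, Cdk4 and Cdk6, Cdkn1a, Cdkn1b, Cdkn2a and Cdkn2c, and Rb1. All 10 genes were among the 23413 gene symbols of the deposited table. All 10 also passed the low-value filter (10 or more normalised counts in 2 or more libraries), Cdkn2a through the repopulating and bone-marrow libraries alone. For Ccnd2, 1 of the 3 repopulating libraries reached 10 normalised counts.

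RNA sequencing covered repopulating microglia (n = 3), bone-marrow macrophages (n = 3) and wild-type microglia (n = 2), microglia being the macrophages that reside in brain tissue. The series title places the work in the local renewal and upkeep of microglia and in interleukin-1 signalling. The labels give the strain of the repopulating microglia and of the bone-marrow macrophages as DTRmg and that of the wild-type microglia as DTR, and for genotype they repeat the name of the population. Both comparisons with wild-type microglia are therefore also comparisons between strain labels, and the effects of population and strain cannot be told apart there. One protocol text stands on all 8 libraries, the wild type included: tamoxifen given subcutaneously (2 mg) at postnatal days 12 and 14, and 3 intraperitoneal injections of 500 ng diphtheria toxin for depletion of microglia. The labels name neither a Cre driver, nor the age at collection, nor the time after toxin, nor the organ from which the bone-marrow macrophages were sorted. Nothing in them ties a replicate to an animal of its own, and the p-values then measure only the spread between these libraries, which may be technical. The columns of the table that were taken as bone-marrow macrophages are headed mono and were assigned by exclusion.

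In the G1 phase of the cell cycle, D cyclins bind and activate CDK4 and CDK6, which phosphorylate the retinoblastoma protein Rb1 and so release E2F transcription factors that switch on the genes of DNA synthesis. Inhibitors of the INK4 family, among them p16 from Cdkn2a and p18 from Cdkn2c, bind CDK4 and CDK6 and keep the cyclin out. Inhibitors of the CIP/KIP family, p21 from Cdkn1a and p27 from Cdkn1b, bind cyclin and kinase together and block CDK2 complexes in particular. Cdkn2a also encodes ARF, from a separate start and another reading frame, which stabilises p53, the activator of Cdkn1a. Counts per gene do not separate the transcripts of p16 and ARF. Adult microglia are long-lived and divide rarely, and are known to divide to refill the brain after depletion.

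Total reads per library ran from 5918944 to 12476427. Within each population the replicates differed beyond counting noise, and repopulating replicate 3 stood apart from the other repopulating libraries: chi-square per degree of freedom was 62.3 and 65.8 against replicates 1 and 2, which differed from each other by 11.8. Values without replicate 3 are therefore given beside most of the tests of the 10 genes and most of the counts of the gene lists in repopulating microglia. The population labels were checked against marker genes. The summed level of 9 microglial markers was 254766 to 295201 normalised counts in repopulating microglia, 94846 to 107097 in bone-marrow macrophages and 400964 to 440443 in wild-type microglia. Sall1, a transcription factor that defines microglia, had 2594, 1864 and 6101 normalised counts in the repopulating libraries, 35.8, 9.55 and 15.0 in the bone-marrow libraries and 3180 and 4056 in the wild-type libraries. The wild-type libraries held the most neutrophil and granulocyte-precursor RNA: all 10 markers of that list summed to 1700 to 3173 normalised counts in repopulating microglia, 841 to 1407 in bone-marrow macrophages and 27467 to 29557 in wild-type microglia. Of its defining markers, Mpo was at 0 in repopulating replicate 3 and Elane in repopulating replicates 2 and 3. The 7 monocyte markers in the table, of 8 listed, summed to 560 to 2015 normalised counts in repopulating microglia, 1798 to 2424 in bone-marrow macrophages and 3914 to 6261 in wild-type microglia. The 6 markers of border-associated macrophages summed to 327 to 934 normalised counts in repopulating microglia, 5270 to 6459 in bone-marrow macrophages and 356 to 609 in wild-type microglia. Most of the bone-marrow sum was Mrc1 (3645 to 4909) and Pf4 (1390 to 1527), and Cbr2 was also higher than in wild-type microglia. Cd163 went the other way, with 16.5 to 23.8 in bone-marrow macrophages and 25.6 and 63.0 in wild-type microglia. Lyve1 and Cd209f were not raised in bone-marrow macrophages. The part of these other cells in the differences described here was not tested. In bulk RNA, fewer cells of a type and less RNA per cell cannot be told apart.

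The promoters of 3 genes are printed because the genes they belong to carried the contrasts described in what follows: both starts of Cdkn2a, which was close to absent in wild-type microglia, the start of Cdk4 and the upstream start of Cdkn1a. Each sequence runs 5′ to 3′ on the strand of the gene, ends at the base before the exon at that start and comes from RefSeq, build GRCm38.p6. Capitals mark matches, on either strand, to an E2F-type motif (TTTNNCGC), a GC box (GGGCGG), an E-box (CACGTG) or paired p53 cores (CATG repeated after any 6 bases). The letters of the last motif were chosen after the sequence had been seen. Of the 10 genes, 7 had an entry in the promoter table.
Cdkn2a, ARF start, chr4:89294654-89294869, minus strand: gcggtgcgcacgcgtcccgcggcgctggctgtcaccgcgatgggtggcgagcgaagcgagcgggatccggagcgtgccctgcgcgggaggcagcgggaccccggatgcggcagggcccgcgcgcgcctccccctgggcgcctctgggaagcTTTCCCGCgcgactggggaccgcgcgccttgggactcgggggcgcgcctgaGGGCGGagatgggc
Cdkn2a, p16 start, chr4:89282193-89282442, minus strand: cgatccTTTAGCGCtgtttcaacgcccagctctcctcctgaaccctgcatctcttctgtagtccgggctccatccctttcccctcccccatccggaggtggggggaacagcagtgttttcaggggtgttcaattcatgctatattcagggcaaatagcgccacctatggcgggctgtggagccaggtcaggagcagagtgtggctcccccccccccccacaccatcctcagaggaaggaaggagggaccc
Cdk4, chr10:127063285-127063533, plus strand: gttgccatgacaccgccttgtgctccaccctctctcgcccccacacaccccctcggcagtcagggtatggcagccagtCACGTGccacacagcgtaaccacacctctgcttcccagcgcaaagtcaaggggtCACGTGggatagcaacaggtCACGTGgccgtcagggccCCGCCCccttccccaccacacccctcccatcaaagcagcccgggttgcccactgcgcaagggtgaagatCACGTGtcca
Cdkn1a, upstream start, chr17:29090729-29090975, plus strand: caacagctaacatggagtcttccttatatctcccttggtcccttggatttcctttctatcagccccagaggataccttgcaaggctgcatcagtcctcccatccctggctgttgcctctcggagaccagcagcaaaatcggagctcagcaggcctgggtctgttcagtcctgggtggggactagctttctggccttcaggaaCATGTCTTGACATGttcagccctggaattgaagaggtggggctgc
Of the 216 bases printed before the ARF start, 78.7% were G or C, with 35 CG pairs, against 60% of the 250 bases before the p16 start, with 7 pairs. The p16 window lies inside the gene, downstream of the ARF start. Each Cdkn2a window held 1 E2F-type match, the Cdk4 window held 4 E-boxes, and the Cdkn1a window held 1 match to the paired p53 cores. Among 32851 mouse promoter windows of 250 bases, 4.28% held the E2F-type motif, 32.7% the GC box, 6.02% the E-box and 0.49% the paired p53 cores. These matches are letters in a window and describe no binding.

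The 3 D cyclins did not move together. Ccnd2 was lowest in repopulating microglia and highest in bone-marrow macrophages, Ccnd1 was highest in bone-marrow macrophages, and Ccnd3 was highest in wild-type microglia. D cyclins are the growth-factor-sensing subunits of the kinase and differ mainly in where they are expressed.

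Ccnd2 (cyclin D2, chr6:127125162-127152193, minus strand) had 11.3, 7.38 and 4.61 normalised counts in repopulating microglia, 351, 245 and 276 in bone-marrow macrophages and 59.8 and 51.9 in wild-type microglia. No library of one population reached into the range of another. Behind these values stood 21 reads in all in the repopulating libraries, 1162 in the bone-marrow libraries and 107 in the wild-type libraries. On the log2(normalised count + 1) scale used for every fold change given here, which understates changes of low genes, Ccnd2 was lower in repopulating than in wild-type microglia by a log2 fold change of -2.77 ± 0.34 (SE; limma, Benjamini-Hochberg adjusted p = 0.00367). It was 2.35 ± 0.34 higher in bone-marrow macrophages than in wild-type microglia (limma, adjusted p = 0.000867) and -5.11 ± 0.30 in repopulating microglia against bone-marrow macrophages (limma, adjusted p = 1.79e-05). Without repopulating replicate 3 the change against wild-type microglia was -2.48 and that against bone-marrow macrophages -4.83, both still called. Without wild-type replicate 1 the difference between repopulating and wild-type microglia no longer passed (adjusted p = 0.0622). That difference was also lost in a fit of only the groups compared. An antisense gene, 9330179D12Rik, shares 2805 bases with Ccnd2, introns included, and had 0 to 7.42 normalised counts over the 8 libraries.

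Ccnd1 (cyclin D1, chr7:144929931-144939925, minus strand) had 1589.6, 1752 and 1118 normalised counts in repopulating microglia, 2618, 2167 and 2568 in bone-marrow macrophages and 1621 and 1629 in wild-type microglia. The bone-marrow libraries lay above all others, while the repopulating range enclosed both wild-type values. Ccnd1 was higher in bone-marrow macrophages than in wild-type microglia by 0.59 ± 0.19 (log2, SE; limma, adjusted p = 0.0374) and lower in repopulating microglia than in bone-marrow macrophages by a log2 fold change of -0.74 ± 0.17 (limma, adjusted p = 0.012). Between repopulating and wild-type microglia the log2 fold change was -0.15 ± 0.19 (limma, adjusted p = 0.645), and it was 0.04 without repopulating replicate 3. The call in bone-marrow macrophages against wild-type microglia was lost without repopulating replicate 1 (adjusted p = 0.0504), bone-marrow replicates 1 or 3 (0.11 and 0.104) or wild-type replicates 1 or 2 (0.148 and 0.14). The call against bone-marrow macrophages was lost without bone-marrow replicate 1 (adjusted p = 0.0555) or 3 (0.0518), and without repopulating replicate 3 it stood at -0.55 (adjusted p = 0.00137).

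Ccnd3 (cyclin D3, chr17:47505051-47599691, plus strand) had 267, 233 and 192 normalised counts in repopulating microglia, 292, 241 and 291 in bone-marrow macrophages and 397 and 451 in wild-type microglia. Both wild-type libraries lay above all 6 others, and the other populations overlapped. Its log2 fold change was -0.89 ± 0.18 in repopulating against wild-type microglia (SE; limma, adjusted p = 0.0222) and -0.63 ± 0.18 in bone-marrow macrophages against the wild type (limma, adjusted p = 0.0214). Repopulating microglia against bone-marrow macrophages gave -0.26 ± 0.16 (limma, adjusted p = 0.27), and -0.13 without repopulating replicate 3. Neutrophil markers were highest in the same wild-type libraries, and their part in the Ccnd3 level was not tested. The call against wild-type microglia was lost for repopulating microglia without bone-marrow replicate 1 (adjusted p = 0.0501) or wild-type replicates 1 or 2 (0.137 and 0.161), and for bone-marrow macrophages without bone-marrow replicate 2 (0.0723) or wild-type replicates 1 or 2 (0.0662 and 0.138). For repopulating microglia it was also lost with the replicate number as a block (adjusted p = 0.0515) and in a fit of only the groups compared (0.112). The change in repopulating against wild-type microglia was -0.76 without repopulating replicate 3 (adjusted p = 0.00309). Ccnd3 shares 361 bases, introns included, with Bysl on the opposite strand, and the library kit does not mark strand. Shared exon bases were not measured.

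Per kilobase of exon, the D cyclin transcripts were mostly Ccnd1 in each population. Its share of the summed length-scaled level was 92.0 ± 1.01% in repopulating microglia (SD, n = 3), 89.3 ± 0.531% in bone-marrow macrophages (SD, n = 3) and 86.4 ± 0.77% in wild-type microglia (SD, n = 2). Ccnd2 made up 0.237 ± 0.0774% in repopulating microglia, 5.28 ± 0.595% in bone-marrow macrophages and 1.49 ± 0.169% in wild-type microglia. Ccnd3 made up 7.78 ± 0.979% in repopulating microglia, 5.37 ± 0.0797% in bone-marrow macrophages and 12.1 ± 0.939% in wild-type microglia. Ccnd3 had the larger of these minor shares in repopulating and wild-type microglia, and in bone-marrow macrophages the shares of Ccnd3 and Ccnd2 differed by less than the spread between libraries: without bone-marrow replicate 3 they were 5.32% and 5.51%. With the longest transcript in place of the union of exons as the length, the bone-marrow shares were 9.21% for Ccnd3 and 5.93% for Ccnd2. Summed over the 3 genes, the length-scaled level was 369, 399 and 259.9 normalised counts per kilobase in repopulating microglia, 626.5, 514 and 608 in bone-marrow macrophages and 396 and 403 in wild-type microglia.

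**Figure D1:**
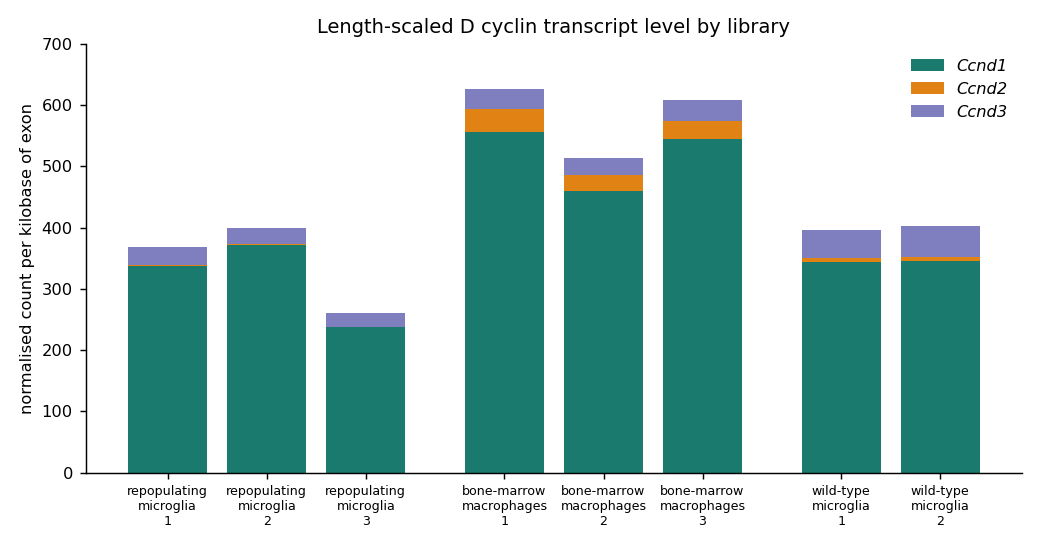
Stacked bars give the length-scaled level (normalised count per kilobase of exon, vertical axis from 0) of Ccnd1, Ccnd2 and Ccnd3 in each of the 8 libraries. Ccnd1 fills most of every bar, the bone-marrow bars are the tallest at 514 to 626.5, and the Ccnd2 segment is widest in the bone-marrow libraries.

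Of the kinases, Cdk4 was highest in bone-marrow macrophages, and Cdk6 was higher in both DTRmg populations than in the wild type. Cdk4 (chr10:127063534-127067920, plus strand), the catalytic partner of the D cyclins in most tissues, had 729, 875 and 617 normalised counts in repopulating microglia, 1445, 1211 and 1426 in bone-marrow macrophages and 681 and 591 in wild-type microglia. The bone-marrow libraries lay above all others. Cdk4 rose by 1.10 ± 0.17 (log2, SE) in bone-marrow macrophages against the wild type (limma, adjusted p = 0.00132) and differed by -0.89 ± 0.15 between repopulating microglia and bone-marrow macrophages (limma, adjusted p = 0.00279). Repopulating against wild-type microglia gave 0.21 ± 0.17 (limma, adjusted p = 0.468). With repopulating replicate 3 left out these last values were -0.76 (adjusted p = 0.00032) and 0.33 (adjusted p = 0.0934). Cdk4 shares 641 bases, introns included, with Tspan31 on the opposite strand. The counts of Tspan31 ran the other way: 1914, 1678 and 1414 in repopulating microglia, 939, 927 and 1029 in bone-marrow macrophages and 2243 and 2053 in wild-type microglia.

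Cdk6 (chr5:3341485-3531008, plus strand), the second partner of D cyclins and known from blood-cell lineages, had 58.6, 54.6 and 58.7 normalised counts in repopulating microglia, 63.1, 45.6 and 55.6 in bone-marrow macrophages and 19.2 and 21.4 in wild-type microglia. All 6 DTRmg libraries lay above both wild-type libraries. The log2 fold change was 1.45 ± 0.23 in repopulating against wild-type microglia (SE; limma, adjusted p = 0.0104) and 1.38 ± 0.23 in bone-marrow macrophages against wild-type microglia (limma, adjusted p = 0.00191). Both comparisons share the wild-type libraries. Repopulating microglia against bone-marrow macrophages gave 0.08 ± 0.21 (limma, adjusted p = 0.815), which was 0.06 without repopulating replicate 3, -0.05 without bone-marrow replicate 2 and -0.17 with every library scaled to the same total. The difference between repopulating and wild-type microglia was 1.44 without repopulating replicate 3 (adjusted p = 0.00174) and was no longer called without wild-type replicate 1 (adjusted p = 0.103) or 2 (0.0655). That difference was also lost in a fit of only the groups compared. Per kilobase Cdk6 was a small part of the pair: 1.81 ± 0.367% of the summed level of both kinases in repopulating microglia (SD, n = 3), 0.922 ± 0.0719% in bone-marrow macrophages (SD, n = 3) and 0.742 ± 0.128% in wild-type microglia (SD, n = 2).

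Among the INK4 inhibitors, Cdkn2a was present in repopulating microglia and bone-marrow macrophages and represented by 1 read in the wild type. Cdkn2a (chr4:89274471-89294653, minus strand) had 25.5, 72.3 and 9.21 normalised counts in repopulating microglia, 42.1, 30.8 and 37.0 in bone-marrow macrophages and 1.07 and 0 in wild-type microglia. These were 84 reads in all in the repopulating libraries and 145 in the bone-marrow libraries, against 1 in the wild-type libraries. The 3 repopulating libraries spread more widely than the bone-marrow ones and enclosed them. As a ratio of scaled reads, repopulating stood 61.9 times above wild-type microglia, with an exact 95% interval of 10.8 to 2474, and bone-marrow macrophages stood 72.5 times above (12.8 to 2885). These intervals cover counting error only. Cdkn2a passed the low-value filter only through the populations where it is high. Its p-values against wild-type microglia are therefore no support beyond the reads. Fitted on the log2 scale, where the size depends on the pseudocount, the changes were 4.23 ± 0.74 for repopulating (SE; limma, adjusted p = 0.0137) and 4.70 ± 0.74 for bone-marrow macrophages (limma, adjusted p = 0.00131), each against wild-type microglia. Repopulating microglia against bone-marrow macrophages gave -0.46 ± 0.66 (limma, adjusted p = 0.637), which was 0.24 without repopulating replicate 3. Without that library the change against wild-type microglia was 4.94 (adjusted p = 3.51e-05). In a fit of only the groups compared, repopulating against wild-type microglia was not called. The call for repopulating microglia was lost without wild-type replicate 1 (adjusted p = 0.0875) or 2 (0.109).

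Cdkn2c (p18, chr4:109660876-109667189, minus strand) had 149, 119.5 and 85.2 normalised counts in repopulating microglia, 209, 181 and 209.9 in bone-marrow macrophages and 83.3 and 75.2 in wild-type microglia. The bone-marrow libraries lay above all others, and every repopulating library lay above both wild-type libraries, replicate 3 by a small margin. Cdkn2c rose in bone-marrow macrophages against wild-type microglia by 1.32 ± 0.24 (log2, SE; limma, adjusted p = 0.00258) and was lower in repopulating microglia than in bone-marrow macrophages, at -0.79 ± 0.21 (limma, adjusted p = 0.0223). Repopulating against wild-type microglia gave 0.53 ± 0.24 (limma, adjusted p = 0.196), and without repopulating replicate 3 the same difference was called at 0.75 (adjusted p = 0.00947). The difference between repopulating microglia and bone-marrow macrophages was lost without bone-marrow replicate 1 (adjusted p = 0.0858) or 3 (0.0809) and was -0.58 without repopulating replicate 3 (adjusted p = 0.0121).

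The CIP/KIP inhibitors behaved unlike each other. Cdkn1a (p21, chr17:29090976-29100727, plus strand), a target of p53, had 905, 1504 and 478 normalised counts in repopulating microglia, 332, 337 and 398 in bone-marrow macrophages and 298 and 322 in wild-type microglia. All 3 repopulating libraries lay above the 5 others, and they spread over a wider range than any other group: 962 ± 515 in repopulating microglia (SD, n = 3), 356 ± 36.5 in bone-marrow macrophages (SD, n = 3) and 310.2 ± 17.1 in wild-type microglia (SD, n = 2). The log2 fold change was 1.48 ± 0.38 against wild-type microglia (SE; limma, adjusted p = 0.049) and 1.29 ± 0.34 against bone-marrow macrophages (limma, adjusted p = 0.0215). Bone-marrow macrophages against wild-type microglia gave 0.19 ± 0.38 (limma, adjusted p = 0.705). Without repopulating replicate 3 the changes were 1.91 against wild-type microglia (adjusted p = 2.95e-05) and 1.72 against bone-marrow macrophages (adjusted p = 1.05e-05). Without replicate 2, the highest, they were 1.08 (adjusted p = 0.0528) and 0.89 (adjusted p = 0.0291). The call against wild-type microglia was lost when any library other than repopulating replicate 3 was left out, with adjusted p from 0.0528 to 0.271, the highest being without wild-type replicate 1. The call against bone-marrow macrophages was lost without repopulating replicate 1 (adjusted p = 0.0653) or bone-marrow replicates 1, 2 or 3 (0.0734, 0.07 and 0.0537).

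Cdkn1b (p27, chr6:134920401-134925513, plus strand), an inhibitor known from resting cells, had 391.96, 362 and 359 normalised counts in repopulating microglia, 260.3, 253 and 265 in bone-marrow macrophages and 381 and 427 in wild-type microglia. The bone-marrow libraries lay below all others, with a narrow spread, and the microglial populations overlapped. The log2 fold change was -0.64 ± 0.13 in bone-marrow macrophages against the wild type (SE; limma, adjusted p = 0.00493) and 0.51 ± 0.12 in repopulating microglia against bone-marrow macrophages (limma, adjusted p = 0.0106). Repopulating against wild-type microglia gave -0.12 ± 0.13 (limma, adjusted p = 0.581). Without wild-type replicate 2 the first of these missed the threshold (adjusted p = 0.0512). With every library scaled to the same total the difference between repopulating microglia and bone-marrow macrophages was 0.26 (adjusted p = 0.126), and without repopulating replicate 3 it was 0.54 (adjusted p = 0.00287).

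Rb1 (chr14:73183673-73325822, minus strand), the substrate of the D cyclin kinases, varied least of the 10, by a root mean square of 0.184 about its mean over the 8 libraries on the log2 scale. It had 429, 533 and 375 normalised counts in repopulating microglia, 476, 573 and 459 in bone-marrow macrophages and 525 and 519 in wild-type microglia. All 3 populations overlapped. The log2 fold changes were -0.24 ± 0.18 in repopulating against wild-type microglia (SE; limma, adjusted p = 0.414), -0.06 ± 0.18 in bone-marrow macrophages against the wild type (limma, adjusted p = 0.802) and -0.18 ± 0.16 in repopulating microglia against bone-marrow macrophages (limma, adjusted p = 0.423). The last became -0.43 (adjusted p = 0.046) with every library scaled to the same total. The values against wild-type microglia and bone-marrow macrophages were -0.13 and -0.07 without repopulating replicate 3. From gene start to gene end, introns included, Rb1 shares 24171 bases with Rcbtb2 and 5400 with Lpar6, both on the opposite strand. The exons of Rb1 cover 6015 bases, and how much of them is shared was not measured.

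**Figure D2:**
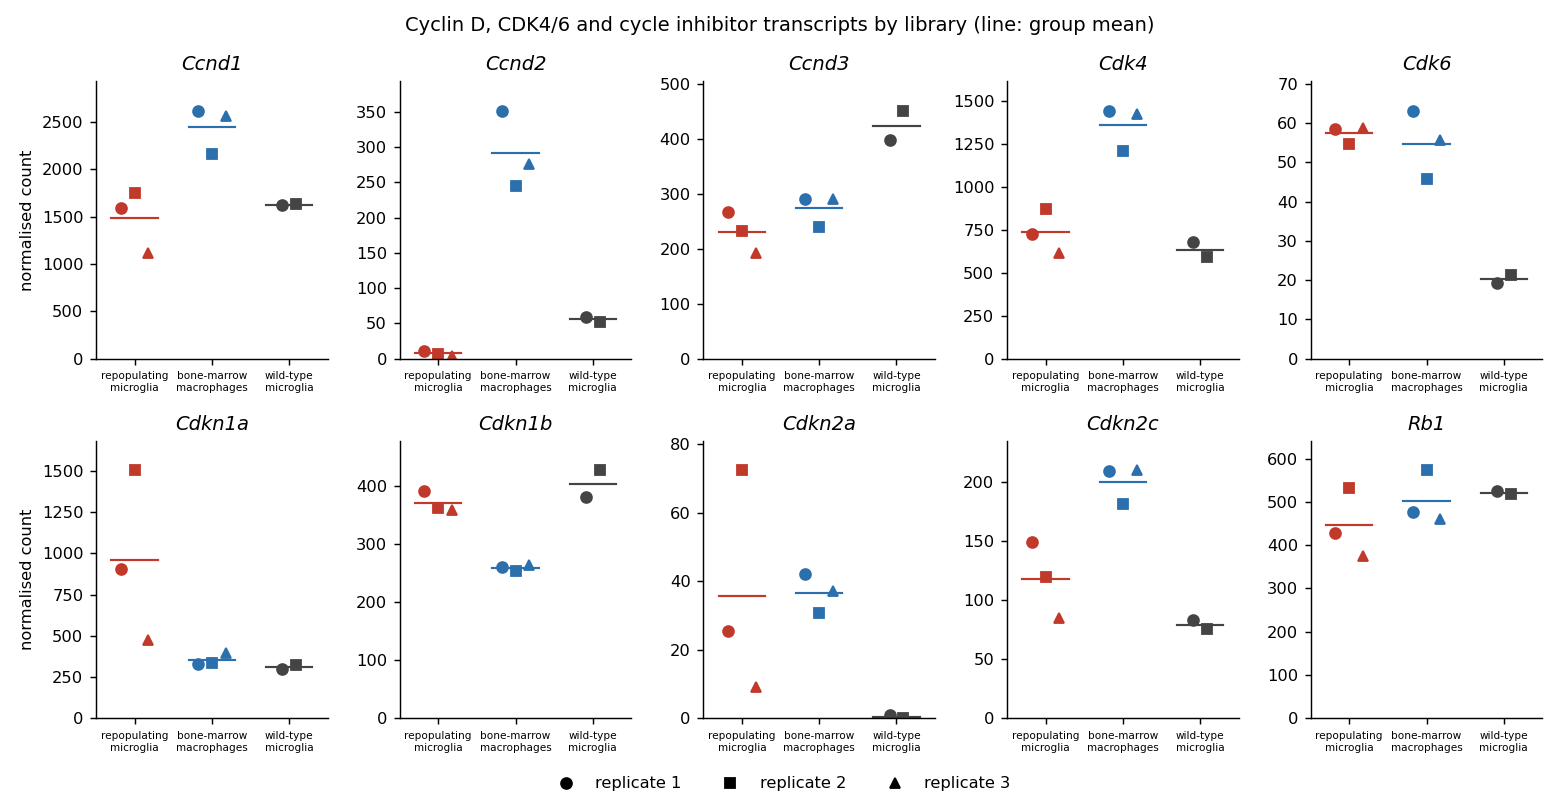
Each panel shows one of the 10 genes, with normalised counts on the vertical axis and repopulating microglia, bone-marrow macrophages and wild-type microglia from left to right. Points are libraries, with a marker for each replicate number, and lines are group means. Ccnd2 separates all 3 populations, Cdkn2a and Cdk6 are lowest in both wild-type libraries, and Cdkn1a is highest and most scattered in the repopulating libraries, from 478 to 1504.

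Per kilobase of exon, where levels of different genes can be set side by side, Ccnd1 had the highest mean in each population, with 316 normalised counts per kilobase in repopulating microglia, 520.5 in bone-marrow macrophages and 345 in wild-type microglia. In repopulating microglia Cdkn1a followed at 271 and Cdk4 at 228. These genes overlapped across libraries, and without repopulating replicate 2 Cdk4 stood above Cdkn1a, at 207 and 195. In bone-marrow macrophages Cdk4 followed at 419, with Cdkn1a at 100.1, and in wild-type microglia Cdk4 followed at 196, with Cdkn1b at 88.8, Cdkn1a at 87.3 and Rb1 at 86.7. Ccnd2 was last in repopulating microglia at 0.826, Cdk6 in bone-marrow macrophages at 3.91 and Cdkn2a in wild-type microglia at 0.456. The first place depended on the length: per kilobase of the longest transcript, a setting chosen after seeing the data, Cdkn1a led in repopulating microglia at 463, with Ccnd1 at 397. On the same length Cdk4 at 663 stood beside Ccnd1 at 655 in bone-marrow macrophages, and Ccnd1 led in wild-type microglia at 434.

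In repopulating against wild-type microglia, 3 of the 10 genes rose (Cdk6, Cdkn1a and Cdkn2a) and 2 fell (Ccnd2 and Ccnd3), where 8.61% of the 11415 genes tested were called, 4.86% as higher and 3.75% as lower. The groups did not overlap for 6 of the 10, against 40.4% of all genes tested. Cdkn2a is in these counts although it passed the filter only through the populations where it is high. The median log2 fold change was 0.04 over the 10 genes and -0.02 over all genes tested. With wild-type replicate 1 left out, none of the 10 passed limma's adjusted threshold, although 5 had an unadjusted p under 0.05, and 67 of the genes tested were called in place of 983. Without wild-type replicate 2, 1 of the 10 passed, and without bone-marrow replicate 1, 3 passed. Without repopulating replicate 3, 6 of the 10 and 2969 of all genes were called. edgeR and DESeq2, run on whole reads, each called 5 of the 10, and a limma fit of only the groups compared called none.

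In bone-marrow macrophages against wild-type microglia, 6 of the 10 rose (Ccnd1, Ccnd2, Cdk4, Cdk6, Cdkn2a and Cdkn2c) and 2 fell (Ccnd3 and Cdkn1b), where 43.5% of all genes tested were called, 21.3% as higher and 22.2% as lower. The groups did not overlap for 9 of the 10, against 75.8% of all genes tested. Cdkn2a is again in these counts, with the same limit from the filter. The median log2 fold change was 0.84 over the 10 genes and -0.01 over all. Between 5 and 8 of the 10 were called when 1 library was left out, 5 of them without wild-type replicate 2.

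In repopulating microglia against bone-marrow macrophages, 2 of the 10 were higher (Cdkn1a and Cdkn1b) and 4 were lower (Ccnd1, Ccnd2, Cdk4 and Cdkn2c), where 30.9% of all genes tested were called, 16% as higher and 14.9% as lower. The groups did not overlap for 6 of the 10, against 46% of all genes tested. The median log2 fold change was -0.36 over the 10 genes and 0.00 over all. The 2 higher genes are both CIP/KIP inhibitors, and among the 4 lower are 2 D cyclins, their kinase and an INK4 inhibitor. Between 3 and 6 of the 10 were called when 1 library was left out, 3 of them without bone-marrow replicate 1 or 3. The 3 comparisons share libraries and are not independent of each other.

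**Figure D3:**
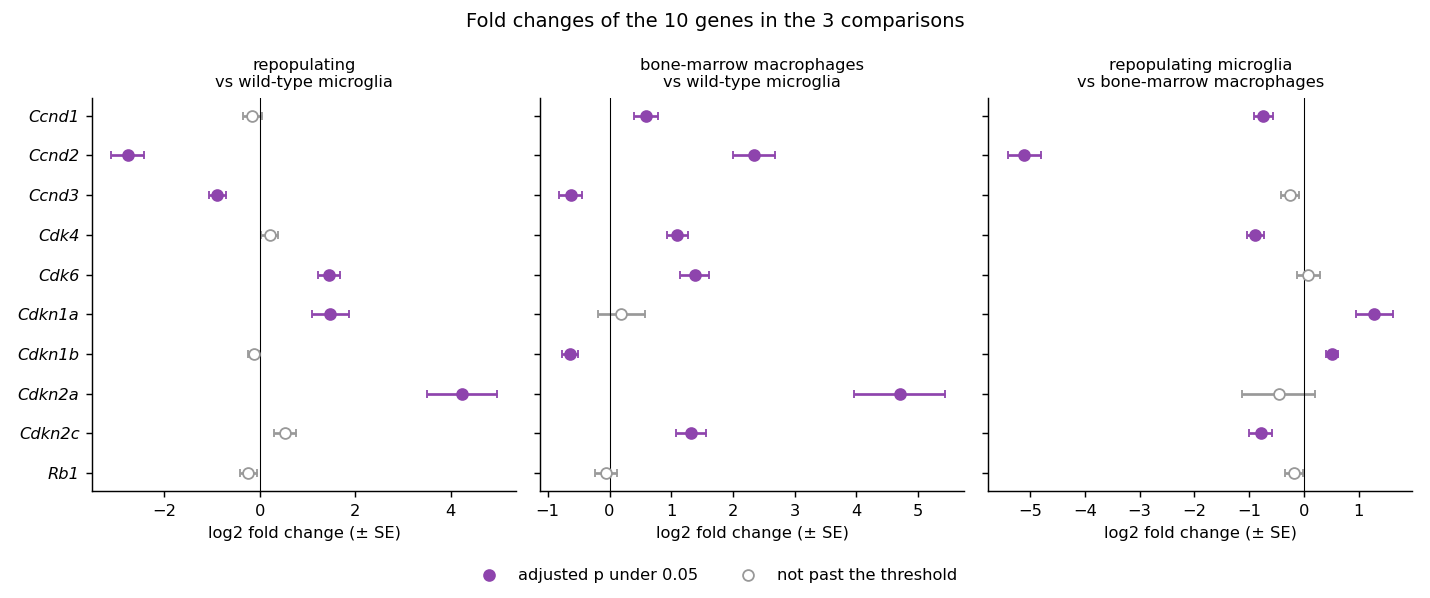
Log2 fold changes with SE (horizontal axis) of the 10 genes in the 3 comparisons, 1 panel each, with filled points where the adjusted p was under 0.05. Ccnd2 lies at -2.77, 2.35 and -5.11 in the 3 panels, and Cdk6 and Cdkn2a lie to the right in both comparisons with wild-type microglia.

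Within the repopulating group, replicate 3 was the lowest of the 3 libraries for 9 of the 10 genes, where it was the lowest for 43.7% of all genes tested. It was the highest for Cdk6 alone. Replicate 2 was the highest for 5 of the 10, namely Ccnd1, Cdk4, Cdkn1a, Cdkn2a and Rb1.

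Genes with the pattern most like that of a member were found by the root mean square difference of log2(normalised count + 1), centred on each gene's mean, over the 8 libraries. For Ccnd2 the nearest was Spn, at 0.272, which had 23.6, 25.1 and 11.5 normalised counts in repopulating microglia, 609, 501 and 582 in bone-marrow macrophages and 179.5 and 109.8 in wild-type microglia, and the next was Il2ra at 0.394. For Cdkn2a it was Spp1, at 0.427, with 2654, 6079 and 994 normalised counts in repopulating microglia, 3705, 4826 and 4069.5 in bone-marrow macrophages and 306 and 201 in wild-type microglia. Spp1, which encodes the secreted protein osteopontin, shared with Cdkn2a the order of the 3 repopulating libraries. These libraries entered the choice of Spp1, so the shared order is no separate result, and Ccnd1, Cdk4, Cdkn1a and Rb1 had it too. For Cdk6 the nearest was Cdk14 at 0.164, with 221, 202 and 198 normalised counts in repopulating microglia, 197, 189 and 205 in bone-marrow macrophages and 84.4 and 98.6 in wild-type microglia. Further first neighbours were Mrps25 for Ccnd1 (0.0827), Adpgk for Ccnd3 (0.131), Sephs2 for Cdk4 (0.0839), Rfxank for Cdkn1b (0.0476), Slc25a10 for Cdkn2c (0.114) and Ppp3cb for Rb1 (0.0499). Among the 10 themselves, the closest pairs were Cdk4 with Cdkn2c (0.209) and Ccnd1 with Cdk4 (0.216).

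Genes further along the pathway were read from lists, to be set against the shares of all genes tested that were called: 8.61% in repopulating against wild-type microglia, 43.5% in bone-marrow macrophages against the wild type and 30.9% in repopulating microglia against bone-marrow macrophages. Of 20 E2F target genes of S phase, none passed in repopulating against wild-type microglia in limma, with a median log2 fold change of -0.24. At an unadjusted p under 0.05 there were 0 higher and 5 lower, edgeR called 0, DESeq2 called 1 lower, and without repopulating replicate 3 limma called 3 lower. In bone-marrow macrophages against wild-type microglia 19 of the 20 rose and none fell, with a median of 2.11, and in repopulating microglia against bone-marrow macrophages all 20 were lower, with a median of -2.29. Rrm2, a subunit of ribonucleotide reductase, had 55.7, 54.6 and 46.1 normalised counts in repopulating microglia, 649.5, 553 and 660.5 in bone-marrow macrophages and 83.3 and 50.8 in wild-type microglia. Its log2 fold change was 3.23 ± 0.23 in bone-marrow macrophages against wild-type microglia (limma, adjusted p = 2.53e-05). With 1 library left out, 17 to 19 of the 20 rose in bone-marrow macrophages against the wild type and 19 or 20 were lower in repopulating microglia than in bone-marrow macrophages.

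Of 15 mitosis and proliferation markers, none passed in repopulating against wild-type microglia in limma, with 0 at an unadjusted p under 0.05 and 0 by edgeR or DESeq2, and the median was -0.00. Without repopulating replicate 3 limma also called 0 there. All 15 rose in bone-marrow macrophages against wild-type microglia, with a median log2 fold change of 3.53, and all 15 were lower in repopulating microglia than in bone-marrow macrophages, with a median of -3.20. Top2a, the topoisomerase of dividing cells, had 78.4, 84.1 and 77.2 normalised counts in repopulating microglia, 1368, 1160.3 and 1356 in bone-marrow macrophages and 93.0 and 74.2 in wild-type microglia. Mki67, chosen after its values were seen, had 2.83, 1.48 and 79.5 normalised counts in repopulating microglia, so that replicate 3 stood apart. It had 139.8, 105 and 176 in bone-marrow macrophages and 2.14 and 3.05 in wild-type microglia. Of the list, only Cenpe and Cenpf were likewise highest in repopulating replicate 3, at 16.1 and 21.9. Most of the others were lowest there, such as Birc5 (38.7, 76.7 and 17.3) and Kif11 (23.6, 20.7 and 12.7). Left-out libraries changed these counts to 14 or 15 and to 13 to 15.

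Of 15 later cyclins, their kinases and activators, 12 rose and 1 fell in bone-marrow macrophages against wild-type microglia (median 2.43), none rose and 11 fell in repopulating microglia against bone-marrow macrophages (median -2.31), and 1 fell in repopulating against wild-type microglia (median -0.28). The 1 that fell in bone-marrow macrophages was no longer called without repopulating replicate 1, any bone-marrow library or either wild-type library. Ccnb2, a mitotic cyclin, had 42.5, 78.2 and 43.8 normalised counts in repopulating microglia, 684, 479 and 659 in bone-marrow macrophages and 52.4 and 39.7 in wild-type microglia. The 1 gene that fell in repopulating against wild-type microglia was Cdc25c, a phosphatase that activates CDK1, with 0.944, 1.48 and 0 normalised counts in repopulating microglia and 6.41 and 5.08 in wild-type microglia (limma, adjusted p = 0.0465). That is 2 reads in all in repopulating against 11 in wild-type microglia, a ratio of scaled reads of 0.134 (exact 95% interval 0.0144 to 0.614, counting error only). Cdc25c passed the low-value filter through the bone-marrow libraries alone, at 64.2, 42.4 and 65.3. A call of Cdc25c in a comparison with bone-marrow macrophages is therefore no support beyond its values. Without repopulating replicate 3, 1 of the list rose and 1 fell in repopulating against wild-type microglia. The Cdc25c call was lost without repopulating replicate 1 (adjusted p = 0.0794), any bone-marrow library (0.0925 to 0.112) or either wild-type library (0.272 and 0.17).

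Of 12 pocket proteins, E2F and DP factors, 1 rose and none fell in repopulating against wild-type microglia (median 0.05), 8 rose and 1 fell in bone-marrow macrophages against the wild type (median 0.98), and 8 were lower and none higher in repopulating microglia than in bone-marrow macrophages (median -0.82). Without repopulating replicate 3 these counts were 2 higher and 1 lower against wild-type microglia and 9 lower against bone-marrow macrophages. Without wild-type replicate 1, 5 rose in bone-marrow macrophages against wild-type microglia. Tfdp1, the dimer partner of E2F factors, was the gene that rose in repopulating microglia: 326, 394 and 284 normalised counts in repopulating microglia, 743, 686 and 700.2 in bone-marrow macrophages and 199.8 and 199.3 in wild-type microglia. Its log2 fold change in repopulating against wild-type microglia was 0.73 ± 0.16 (limma, adjusted p = 0.0273), lost without repopulating replicate 1 (adjusted p = 0.0687), any bone-marrow library (0.0597 to 0.0651) or either wild-type library (0.188 and 0.149). E2f8, a repressing E2F, had 19.8, 20.7 and 13.8 normalised counts in repopulating microglia, 248, 210.0 and 288 in bone-marrow macrophages and 18.2 and 13.2 in wild-type microglia. E2f7, among the 8 lower, passed the low-value filter through the bone-marrow libraries alone. It had 70.5, 58.3 and 58.2 normalised counts there, and its calls against them are no support beyond the values.

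The list of p53 and its targets was read because Cdkn1a is one such target. Of 18 members tested, none passed in repopulating against wild-type microglia in limma, with a median log2 fold change of 0.40. At an unadjusted p under 0.05, 6 were higher and 2 lower, edgeR called 0 and DESeq2 2 in each direction, and without repopulating replicate 3 limma called 7 higher and 2 lower. In bone-marrow macrophages against wild-type microglia 1 rose and 4 fell (median -0.02), which became 1 and 2 without wild-type replicate 1 and 0 and 1 without wild-type replicate 2. In repopulating microglia against bone-marrow macrophages 5 were higher and 1 lower (median 0.31), 6 of 18 beside 30.9% of all genes tested, and the 5 became 7 without repopulating replicate 3, 3 without repopulating replicate 1 or bone-marrow replicate 3, and 2 without repopulating replicate 2 or bone-marrow replicates 1 or 2. Btg2, an antiproliferative gene, had 13065, 9769 and 12034 normalised counts in repopulating microglia, 1255, 1849 and 1857 in bone-marrow macrophages and 5728 and 7504 in wild-type microglia. Its log2 fold change was 2.83 ± 0.20 in repopulating microglia against bone-marrow macrophages (limma, adjusted p = 3.34e-05) and 0.82 ± 0.22 in repopulating against wild-type microglia (limma, adjusted p = 0.0555). Trp53inp1 had 260.7, 322 and 147 normalised counts in repopulating microglia, 90.4, 109.2 and 83.8 in bone-marrow macrophages and 219 and 255 in wild-type microglia. The 1 called lower was Sesn1, with 996, 952 and 889 normalised counts in repopulating microglia, 1498, 1496 and 1235 in bone-marrow macrophages and 1293 and 1263 in wild-type microglia. Its log2 fold change was -0.57 ± 0.12 against bone-marrow macrophages (limma, adjusted p = 0.00706) and -0.44 ± 0.13 against wild-type microglia (limma, adjusted p = 0.0804).

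Of 15 Polycomb group genes, which encode repressors known to act on Cdkn2a, none rose and 1 fell in repopulating against wild-type microglia (median -0.05), 3 rose and 4 fell in bone-marrow macrophages against the wild type (median -0.03), and 1 was higher and 3 lower in repopulating microglia than in bone-marrow macrophages (median 0.19). The 7 of 15 called in bone-marrow macrophages against the wild type stand beside 43.5% of all genes tested, and the 4 of 15 beside 30.9%, shares near those of the list. In repopulating against wild-type microglia 3 fell without repopulating replicate 3. In repopulating microglia against bone-marrow macrophages 3 were higher without repopulating replicate 3, and none without repopulating replicate 1 or bone-marrow replicates 1 or 3. Bmi1, a core subunit of Polycomb repressive complex PRC1, had 409, 331 and 227 normalised counts in repopulating microglia, 218, 265 and 197 in bone-marrow macrophages and 654 and 607 in wild-type microglia. Both wild-type libraries lay above all 6 others. A link between Bmi1 and the Cdkn2a level was not tested. The log2 fold change of Bmi1 was -1.01 ± 0.24 in repopulating against wild-type microglia (limma, adjusted p = 0.0391) and -1.48 ± 0.24 in bone-marrow macrophages against wild-type microglia (limma, adjusted p = 0.00162). In repopulating against wild-type microglia the call was lost without repopulating replicate 2 (adjusted p = 0.0585), any bone-marrow library (0.064 to 0.0776) or either wild-type library (0.255 and 0.168). Ezh2, the methyltransferase of PRC2 and itself a gene of dividing cells, had 74.6, 66.4 and 47.2 normalised counts in repopulating microglia, 300.1, 316 and 267 in bone-marrow macrophages and 81.2 and 48.8 in wild-type microglia.

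The 3 further CDK inhibitors completed both inhibitor families. Cdkn1c, which encodes p57 of the CIP/KIP family, had 31.2, 23.6 and 51.8 normalised counts in repopulating microglia, 17.0, 11.7 and 7.94 in bone-marrow macrophages and 55.6 and 60.0 in wild-type microglia, and fell in bone-marrow macrophages against wild-type microglia, at a log2 fold change of -2.21 ± 0.41 (limma, adjusted p = 0.00305). It was also higher in repopulating microglia than in bone-marrow macrophages, at 1.45 ± 0.37 (limma, adjusted p = 0.0171). That call was lost without bone-marrow replicate 2 or 3. Cdkn2b, which encodes p15 and neighbours Cdkn2a, had 13.2, 16.2 and 23.0 normalised counts in repopulating microglia, 5.11, 5.30 and 3.53 in bone-marrow macrophages and 6.41 and 8.13 in wild-type microglia. It passed the low-value filter through the repopulating libraries alone, so its difference is given as these values with no test. Cdkn2d, which encodes p19 of the INK4 family, had 91.6, 134 and 92.1 normalised counts in repopulating microglia, 205, 172 and 233 in bone-marrow macrophages and 130.4 and 119 in wild-type microglia, and was lower in repopulating microglia than in bone-marrow macrophages, at -0.94 ± 0.20 (limma, adjusted p = 0.00749). It was higher in bone-marrow macrophages than in wild-type microglia, at 0.69 ± 0.22 (limma, adjusted p = 0.0344). This call was lost without bone-marrow replicate 1 or 3 or either wild-type library. None of the 3 was called in repopulating against wild-type microglia, with or without repopulating replicate 3.

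The remaining 3 lists gave few calls in repopulating against wild-type microglia. Of 13 genes for the turnover of p27 and of D cyclins, none was called there in limma, at an unadjusted p under 0.05 or by edgeR or DESeq2, with a median of -0.15, but 2 fell without repopulating replicate 3, while 3 rose and 4 fell in bone-marrow macrophages against wild-type microglia. Those counts were 3 and 1 without wild-type replicate 1, 1 and 2 without wild-type replicate 2, and 3 and 2 without bone-marrow replicate 1 or 3. Skp2, the ubiquitin ligase subunit that marks p27 for destruction, had 66.1, 60.5 and 31.1 normalised counts in repopulating microglia, 195, 172 and 158 in bone-marrow macrophages and 70.5 and 43.7 in wild-type microglia. Skp2 was highest in the bone-marrow libraries. A link between Skp2 and the Cdkn1b transcript level was not tested. Of 11 Myc, Max and FoxO factors tested, 1 rose in repopulating against wild-type microglia: Mxd4, an antagonist of Myc, with 250.3, 320.3 and 219 normalised counts in repopulating microglia, 210.3, 203 and 185 in bone-marrow macrophages and 131 and 148 in wild-type microglia. Its log2 fold change was 0.89 ± 0.19 (limma, adjusted p = 0.0248), lost without repopulating replicate 1 (adjusted p = 0.0634), any bone-marrow library (0.0519 to 0.0565) or either wild-type library (0.21 and 0.114), and without repopulating replicate 3, 2 of this list rose and 1 fell. Of 7 genes of the DREAM complex, none was called in repopulating against wild-type microglia by limma, edgeR or DESeq2, with 2 lower at an unadjusted p under 0.05 and 1 lower without repopulating replicate 3, and in each other comparison 1 was higher and 1 lower. Mybl2, its activating partner in dividing cells, had 5.67, 1.48 and 6.91 normalised counts in repopulating microglia, 100.02, 76.4 and 118 in bone-marrow macrophages and 9.62 and 5.08 in wild-type microglia. Mybl2 is in the counts of both comparisons with bone-marrow macrophages although it passed the low-value filter through the bone-marrow libraries alone. Its calls are therefore no support beyond these values.

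**Figure D4:**
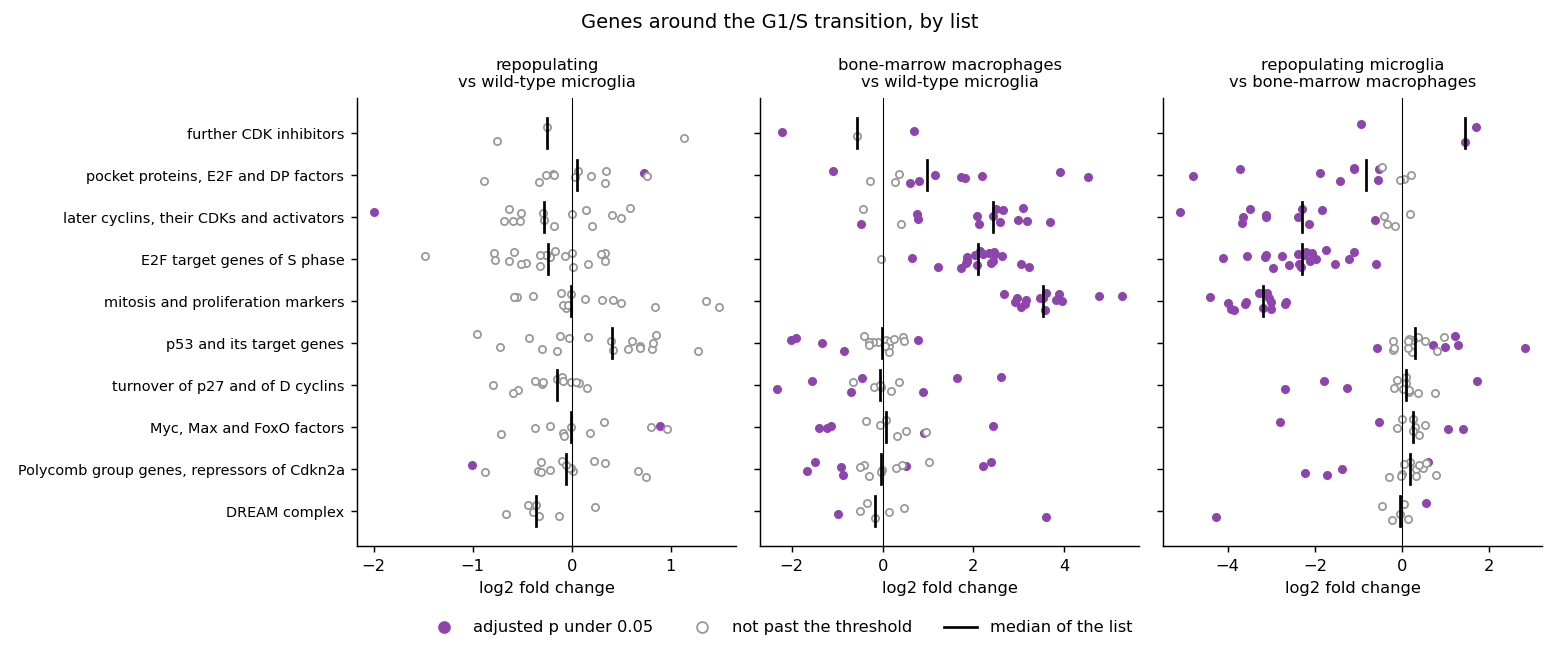
Points are genes of the 10 pathway lists, with their log2 fold change on the horizontal axis in the 3 comparisons, 1 panel each, and black lines are list medians. The S-phase and mitosis lists lie near 0 in repopulating against wild-type microglia, with medians of -0.24 and -0.00, and away from 0 in both comparisons with bone-marrow macrophages.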

How the data were processed

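The deposited table gives a signal for 23413 gene symbols in 8 libraries: counts per gene that the authors divided by a size factor of each library, which can be read from the values. Dividing each value by what 1 read is worth in its library gave whole reads for 100% of values above 0 in each library (tolerance 0.01 reads). Per the labels' protocols, the library kit was TruSeq RNA v2, an unstranded kit. The submitters' processing notes name build mm10, HTSeq, DESeq 1.14.0, Bowtie2 2.1.0.0 and TopHat2 2.0.10, as the labels list them. Neither the role of each tool, nor the annotation, nor the strand setting is given in the sources used here.

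Samples were grouped by title. The columns headed repop and ctrl were matched to repopulating and wild-type microglia, and the remaining 3, headed mono, to bone-marrow macrophages. The genes and lists were chosen with earlier results of these data known. Genes are named by a rule: all 10 set members, up to 4 called genes of each list by smallest adjusted p (otherwise the 2 with the highest mean), and the 2 nearest genes to each member. Not every gene so named is given, and 1 is not reported here.

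The 11415 genes that reached 10 normalised counts in 2 or more libraries were tested on the log2(normalised count + 1) scale. One limma 3.58.1 model over all 8 libraries, with a variance trend and no covariates, was fitted in R 4.3.3, two-sided, at a Benjamini-Hochberg adjusted p of 0.05 per comparison. edgeR 4.0.16 (quasi-likelihood) and DESeq2 1.42.0 were run on recovered reads as alternatives; edgeR called 969 genes in repopulating against wild-type microglia, 5040 in bone-marrow macrophages against the wild type and 3568 in repopulating microglia against bone-marrow macrophages. Other alternatives were pseudocounts of 0.5 and 4, no filter, a filter of 50, TMM scaling, equal totals, only the groups compared, the replicate number as a block and each library left out. The fit was tested on simulated data. Coordinates are 1-based, on GRCm38 (mm10), from GENCODE vM21, whose exon unions gave the lengths. Reads carried no molecular identifiers, so intervals cover counting error only. Figures were drawn with matplotlib 3.10.9.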

Additional observations from a re-analysis of the deposited data

How the results depend on the processing

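Of 537 recomputed fold changes of the 10 genes, 483 kept their direction and their side of the threshold, 42 lost a call, 3 gained one and 9 changed sign. Every change of sign was of an uncalled difference. Rb1 in bone-marrow macrophages against wild-type microglia, -0.06 as reported, was 0.033 under TMM scaling, 0.083 at equal totals, 0.029 with the replicate block and 0.013 in edgeR, and ran from -0.16 to 0.0018 with 1 library left out, the highest without bone-marrow replicate 3. Cdk6 in repopulating microglia against bone-marrow macrophages, 0.08 as reported, was -0.17 at equal totals and ran from -0.047 (without bone-marrow replicate 2) to 0.18 with 1 library left out. With 1 library left out, Ccnd1 in repopulating against wild-type microglia ran from -0.29 to 0.038 and Cdkn2a in repopulating microglia against bone-marrow macrophages from -1.18 to 0.24, each highest without repopulating replicate 3.

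In repopulating against wild-type microglia, 983 genes and 5 of the 10 were called. With only the groups compared, 78 genes and 0 of the 10 were called, although 5 of the 10 had an unadjusted p under 0.05, and edgeR and DESeq2 called 5. DESeq2 called 1625 genes. With the filter of 50, under which Cdkn2a was not tested, 3 of the 10 were called. Leaving out 1 library gave 67 (without wild-type replicate 1) to 2969 genes (without repopulating replicate 3) and 0 to 6 of the 10. In bone-marrow macrophages against wild-type microglia, with 4960 genes and 8 of the 10, the ranges were 2821 to 6992 genes and 5 to 8 of the 10. In repopulating microglia against bone-marrow macrophages, with 3526 genes and 6 of the 10, they were 2212 to 5335 genes and 3 to 6 of the 10. The cause was not tested.

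Cdkn1a in repopulating against wild-type microglia, at adjusted p = 0.049 in limma, missed the threshold with a pseudocount of 0.5 (0.0504), with no filter (0.0605), with the filter of 50 (0.051) and with only the groups compared (0.173).

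With every library scaled to the same total, the median log2 fold change of all genes was -0.13 in repopulating against wild-type microglia, -0.25 in repopulating microglia against bone-marrow macrophages and 0.14 in bone-marrow macrophages against the wild type. The called genes then split into 440 higher and 729 lower (555 and 428 as reported), 1169 and 2934 (1826 and 1700), and 3007 and 2068 (2428 and 2532). Ccnd3 was then called in repopulating microglia against bone-marrow macrophages (-0.51, adjusted p = 0.0303).

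With the longest transcript as length, the Ccnd1 share was 86.5% in repopulating microglia, 84.9% in bone-marrow macrophages and 78.5% in wild-type microglia, the Ccnd2 share in bone-marrow macrophages 5.93%, and the Ccnd3 share 13.2%, 9.21% and 19.9% in the same order of populations.

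The deviations of libraries with the same replicate number from their group means had correlations of -0.24 to 0.24. With 2 or 3 libraries per group, and the 2 wild-type deviations mirror images of each other, these cannot decide whether the numbers pair libraries. The replicate block gave 733, 4811 and 3564 genes and 4, 8 and 6 of the 10 in the 3 comparisons, and in it Ccnd3 in repopulating against wild-type microglia had an adjusted p of 0.0515.

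Depth limits Ccnd2 in repopulating microglia (21 reads) and Cdkn2a in wild-type microglia (1 read) most.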
